A study of Mus musculus with 16 samples.

Results

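The genes described here are 10 genes of iron and heme handling, Hmox1, Hmox2, Blvrb, Fth1, Ftl1, Slc40a1, Slc11a1, Slc11a2, Tfrc and Cp, taken by symbol from the 32166 genes of the count table of microglia/macrophages isolated from mouse brain. Each symbol matched 1 gene. The lowest count of any of them in any library was 262, and 10 of 10 passed the filter on low counts in every comparison. RNA was sequenced from 16 libraries of male C57BL/6 mice aged 10 to 12 weeks, 3 days after surgery. Surgery was MCAO, a transient filament occlusion of the left middle cerebral artery that models ischemic stroke, or sham. Vdr-cKO mice carried Cx3cr1CreER/+ and Vdrf/f, and control mice were Vdrf/f littermates without Cre, so the floxed Vdr alleles and the tamoxifen given before surgery were common to all groups. There were 4 MCAO Vdr-cKO, 4 MCAO control, 3 sham Vdr-cKO and 5 sham control libraries. CreER is expressed from one Cx3cr1 allele, which it disrupts, and it acts in any cell that expressed Cx3cr1 when tamoxifen was given. Whether 1 library is 1 mouse is not stated, so the p-values measure the spread between these libraries.

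Heme released from dying cells, from phagocytosed red blood cells and from turnover of the cell's own heme proteins is opened by heme oxygenase, which releases iron, carbon monoxide and biliverdin. Biliverdin is then reduced by biliverdin reductases. The freed iron is stored in ferritin, a shell of heavy and light chains, or leaves the cell through ferroportin, while transferrin-bound iron enters through the transferrin receptor and is passed out of the endosome by a divalent metal transporter. Macrophages are known for recycling iron from red blood cells in this way, and in the injured brain microglia and infiltrating macrophages take up heme and iron.

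Several of these transcripts are known to be read by the iron regulatory proteins, which bind a hairpin, the iron-responsive element (IRE), when iron is scarce. In a 5′ UTR the bound hairpin blocks translation, and in the 3′ UTR of Tfrc it protects the mRNA, so a change of a ferritin mRNA and a change of ferritin protein need not go together. The GENCODE M21 transcripts (GRCm38) were searched on the sense strand for the loop CAGTGN, its last base other than G, closed by 5 paired bases on each side (G with T allowed) and preceded by a bulged C before the stem. Transcripts of 4 of the 10 genes held a match, against 222 of 21901 protein-coding genes (1.01%). They are shown because they separate the members with an element in the 5′ UTR from Tfrc, with loop bases in capitals.
Fth1, 5′ UTR, chr19:9982733-9982759, plus strand: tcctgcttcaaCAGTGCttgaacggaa
Ftl1, 5′ UTR, chr7:45459780-45459806, minus strand: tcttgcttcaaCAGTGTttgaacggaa
Slc40a1, 5′ UTR, chr1:45925466-45925492, minus strand: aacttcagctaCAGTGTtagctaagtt
Tfrc, 3′ UTR, chr16:32631220-32631246, plus strand: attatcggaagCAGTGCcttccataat
Tfrc, 3′ UTR, chr16:32631599-32631625, plus strand: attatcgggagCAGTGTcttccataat
Tfrc, 3′ UTR, chr16:32631664-32631690, plus strand: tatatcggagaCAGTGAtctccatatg
Tfrc, 3′ UTR, chr16:32631711-32631737, plus strand: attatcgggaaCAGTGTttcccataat
No match says only that this pattern is not in the transcripts searched, and binding was not measured.

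The libraries held 13795946 to 17836796 counts. Levels are CPM, counts scaled by library size and by TMM factors over the 16 libraries, and "rose" or "fell" means an adjusted p under 0.05 by edgeR. None of the 9 microglia markers was at 0 in every library of a group, and their summed level was 14716 to 19341 CPM in MCAO Vdr-cKO, 17837 to 19705 in MCAO control, 26154 to 26717 in sham Vdr-cKO and 25030.1 to 31003 in sham control libraries. The 9 monocyte markers summed to 1599.9 to 4508 CPM in MCAO Vdr-cKO, 2533 to 3826 in MCAO control, 159.8 to 189.7 in sham Vdr-cKO and 121 to 239.6 in sham control libraries, with S100a4 at 0 in every sham Vdr-cKO library. Replicates 1 and 2 of MCAO Vdr-cKO stood apart at 4508 and 3279 CPM of monocyte markers, with 1841 and 1599.9 in replicates 3 and 4. The 5 choroid plexus markers summed to 436 to 1510.4 CPM in MCAO libraries and to 2673 to 11239.9 in sham libraries, and sham control replicates 2, 4 and 5 (2673 to 4485) lay below replicates 1 and 3 (7601 and 9001). Cx3cr1 averaged 913 and 2251 CPM in Vdr-cKO libraries after MCAO and sham, against 2229 and 4908 in control libraries. Vdr averaged 3.67 and 0.361 CPM in Vdr-cKO libraries after MCAO and sham, against 2.35 and 0.306 in control libraries, and counts per gene do not measure the deletion of an exon. Only the sham control columns carry a read-file ending in their names, so any difference in handling that it marks cannot be told apart from that group. In bulk samples such as these, fewer cells of a type and less RNA per cell cannot be told apart.

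Genes of heme breakdown and iron storage rose with MCAO and the iron exporter fell, in both genotypes. In Vdr-cKO libraries 7 of the 10 genes rose, Hmox1, Ftl1, Fth1, Blvrb, Tfrc, Hmox2 and Slc11a1, and 2 fell, Slc40a1 and Cp, where 29.3% of the 16357 genes tested rose and 28.8% fell. In control libraries the numbers were also 7 and 2, with the same 9 genes and directions, where 31.2% of 16089 genes rose and 32.3% fell. The 2 comparisons use separate libraries. For 9 of the 10 genes the MCAO and sham libraries did not overlap within either genotype, as was the case for 60.7% of genes in Vdr-cKO and 52.9% in control. The median log2 fold change of the 10 genes was 0.84 in Vdr-cKO and 0.74 in control, with medians over all genes of -0.02 and -0.05. By library size alone, without TMM, the median of all genes moved to -0.27 in Vdr-cKO and -0.29 in control and the share of higher genes among those called was 33.4% and 32.8%, against 50.4% and 49.2% with TMM. Of the 10 genes 7 then rose and 2 fell in Vdr-cKO, and 6 rose and 3 fell in control. There Hmox2 was no longer called and Slc11a2 was called lower.

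**Figure D1:**
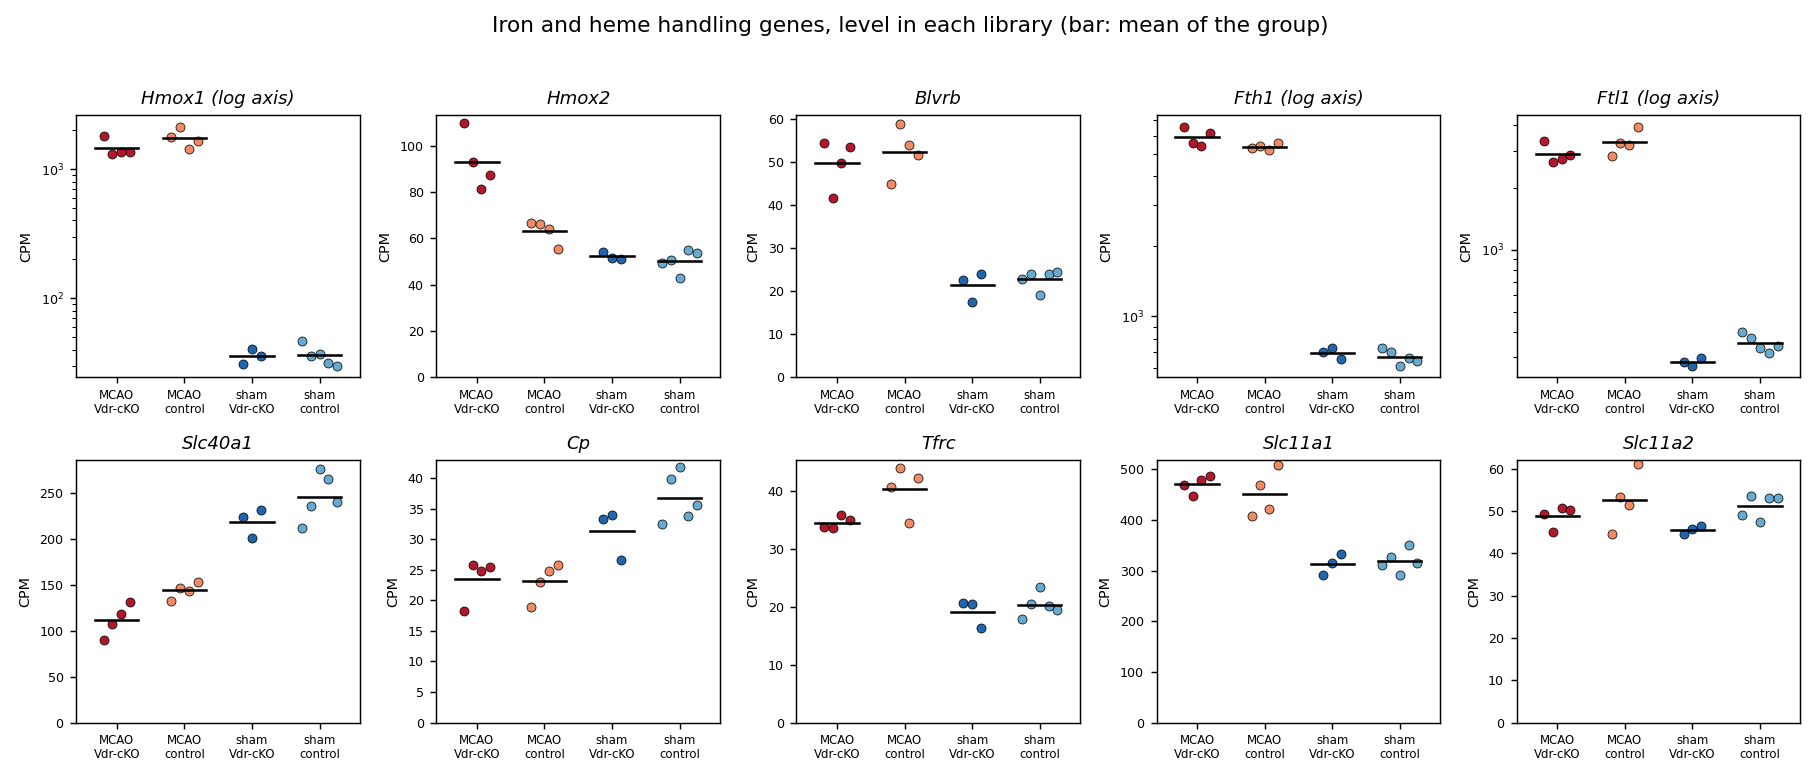
Level of each gene (CPM, vertical axis, logarithmic for Hmox1, Fth1 and Ftl1) in each of the 16 libraries, with points for libraries and bars for group means. For Hmox1 the MCAO libraries lie between 1308 and 2125 CPM and the sham libraries between 30.1 and 46.2 CPM.

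Hmox1, the inducible heme oxygenase (ENSMUSG00000005413, chromosome 8 of GRCm38, 75093621 to 75100589), had the highest fold change of the 10 in both genotypes. Its level was 1817, 1308, 1363 and 1351 CPM in MCAO Vdr-cKO libraries, against 31.1, 40.3 and 35.4 CPM in sham Vdr-cKO libraries. In MCAO control libraries it was 1765, 2125, 1437 and 1650.4 CPM, against 46.2, 35.9, 37.1, 31.3 and 30.1 CPM in sham control libraries. Every MCAO library was far above every sham library, and among the MCAO Vdr-cKO libraries replicate 1 was highest, away from the other 3. The fold change was 40.9 in Vdr-cKO (log2 5.36, standard error 0.17, adjusted p = 1.3e-08) and 48.1 in control (log2 5.59, standard error 0.16, adjusted p = 1.45e-10). By size of the fold change Hmox1 stood at place 67 of 16357 genes in Vdr-cKO and at place 37 of 16089 genes in control.

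Hmox2, the heme oxygenase that most cells express without induction (ENSMUSG00000004070, chromosome 16, 4726361 to 4766742), rose in both genotypes. It had 109.9, 92.8, 81.5 and 87.1 CPM in MCAO Vdr-cKO libraries, against 53.9, 51.5 and 51.2 CPM in sham Vdr-cKO libraries. In controls it had 66.5, 66.3, 63.9 and 55.4 CPM after MCAO, against 49.4, 50.7, 42.8, 55.1 and 53.9 CPM after sham. The groups were well apart in Vdr-cKO and close in control, where the lowest MCAO library lay just above the highest sham library. Hmox2 rose 1.78-fold in Vdr-cKO (log2 0.83, standard error 0.11, adjusted p = 8.11e-05) and 1.25-fold in control (log2 0.32, standard error 0.09, adjusted p = 0.0066). By library size alone the control value was 0.08 (adjusted p = 0.416).

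The exons of Hmox2 share 892 of their 2217 bases (40.2%) with Cdip1, a gene on the opposite strand, and the strand setting of the counting is not given, so reads from the shared stretch cannot be assigned. Cdip1 moved the other way with surgery, at 44.9 ± 4.97 CPM (SD, n = 4) in MCAO Vdr-cKO and 74.7 ± 6.76 CPM (SD, n = 3) in sham Vdr-cKO libraries, and at 44.2 ± 3.53 CPM (SD, n = 4) in MCAO control and 72.4 ± 2.75 CPM (SD, n = 5) in sham control libraries.

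Blvrb, biliverdin reductase B (ENSMUSG00000040466, chromosome 7, 27447978 to 27466144), had 41.8 to 54.4 CPM in MCAO Vdr-cKO libraries, against 17.6 to 24.1 CPM in sham Vdr-cKO libraries. In controls the ranges were 44.9 to 59.0 CPM after MCAO and 19.2 to 24.4 CPM after sham. No MCAO library reached down to the sham range in either genotype. Blvrb rose 2.33-fold in Vdr-cKO (log2 1.22, standard error 0.14, adjusted p = 3.1e-05) and 2.28-fold in control (log2 1.19, standard error 0.10, adjusted p = 5.65e-07).

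The ferritin chains had the next highest fold changes after Hmox1. Fth1, the ferritin heavy chain with ferroxidase activity (ENSMUSG00000024661, chromosome 19, 9980598 to 9985098), had 6545, 5597, 5435 and 6152 CPM in MCAO Vdr-cKO libraries, against 700.0, 729 and 658 CPM in sham Vdr-cKO libraries. In control libraries Fth1 had 5329, 5412, 5191 and 5552 CPM after MCAO, against 728, 703, 613, 663 and 644 CPM after sham. The MCAO control libraries were close to each other, with a coefficient of variation of 2.81%. Fth1 rose 8.52-fold in Vdr-cKO (log2 3.09, standard error 0.12, adjusted p = 4.06e-08) and 7.98-fold in control (log2 3.00, standard error 0.08, adjusted p = 1.08e-10).

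Ftl1, the ferritin light chain, which favours the forming of the iron core (ENSMUSG00000050708, chromosome 7, 45457944 to 45459884), had 3361, 2666, 2764 and 2889 CPM in MCAO Vdr-cKO libraries, against 284, 274 and 298 CPM in sham Vdr-cKO libraries. In control libraries Ftl1 had 2851, 3293, 3232 and 3941 CPM after MCAO, against 400.3, 371, 334, 314 and 339.8 CPM after sham. The increase was 10.2-fold in Vdr-cKO (log2 3.35, standard error 0.12, adjusted p = 2.48e-08) and 9.42-fold in control (log2 3.24, standard error 0.11, adjusted p = 4.35e-10). Both ferritin chains carry the 5′ UTR element shown above, and their mRNAs together made up 0.767% to 0.864% of all counts in MCAO libraries of either genotype and 0.103% to 0.124% in sham libraries. Of 6 retrocopy rows named after ferritin, Ftl1-ps1 had 28 to 776 counts a library (0.551% to 1.64% of the Ftl1 count) and the other 5 had 27 counts or fewer. A transcript antisense to 26.5% of the Ftl1 exons, Gm10252, had 19 counts or fewer.

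The monocyte marker sum, given above, was also higher in every MCAO than in every sham library. In Vdr-cKO 9 of 9 monocyte markers tested rose with MCAO and 7 of 9 microglia markers fell, and in control 8 of 9 rose and 7 of 9 fell. Within the MCAO Vdr-cKO libraries replicate 1, with the highest monocyte sum (4508 CPM), was also the highest of the 4 for Hmox1, Hmox2, Blvrb, Fth1 and Ftl1. Among the MCAO control libraries replicate 1 also had the highest monocyte sum (3826 CPM). It was the highest there for Hmox2 (66.5 CPM) and the lowest for Blvrb (44.9 CPM) and Ftl1 (2851 CPM). With replicates 3 and 4, of the lowest monocyte sums, as the only MCAO Vdr-cKO libraries the same 7 genes rose. The part of the cell types in the change of Hmox1, Hmox2, Blvrb, Fth1 and Ftl1 was not tested. Markers of the red blood cell lineage, globins included, summed to 2.86 to 39.6 CPM after MCAO and 4.86 to 22.2 CPM after sham, with 0 called in either genotype.

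Slc40a1, ferroportin, the iron exporter of mammalian cells (ENSMUSG00000025993, chromosome 1, 45908068 to 45926523), moved against the storage genes. Its level was 89.7, 107, 118 and 131 CPM in MCAO Vdr-cKO libraries, against 223, 200.2 and 231 CPM in sham Vdr-cKO libraries. In control libraries it was 132, 146, 143 and 153 CPM after MCAO, against 212, 235, 276, 264 and 239.9 CPM after sham. All MCAO libraries lay below all sham libraries. Slc40a1 fell by 0.97 on the log2 scale in Vdr-cKO (standard error 0.13, adjusted p = 8.13e-05) and fell by 0.78 in control (standard error 0.08, adjusted p = 6.22e-06). The 6 border macrophage markers summed to 838 to 1023 CPM in MCAO Vdr-cKO and 552 to 681 CPM in sham Vdr-cKO libraries, and 1293 to 1575 CPM in MCAO control and 641 to 867 CPM in sham control libraries. Of the 6, 3 rose and 3 fell in Vdr-cKO and 3 rose and 2 fell in control, and their part in the level of Slc40a1 was not tested.

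Cp, ceruloplasmin, a copper ferroxidase that loads exported iron onto transferrin (ENSMUSG00000003617, chromosome 3, 19957054 to 20009145), fell as well. It had 18.3, 25.7, 24.8 and 25.5 CPM in MCAO Vdr-cKO libraries, against 33.4, 34.0 and 26.7 CPM in sham Vdr-cKO libraries and the highest MCAO library, at 25.7 CPM, lay next to the lowest sham library, at 26.7 CPM. In control libraries the levels were 19.0, 23.1, 24.8 and 25.8 CPM after MCAO, against 32.4, 39.8, 41.8, 33.7 and 35.6 CPM after sham. The log2 fold change was -0.41 in Vdr-cKO (standard error 0.14, adjusted p = 0.0302) and -0.67 in control (standard error 0.11, adjusted p = 0.000222). The call in Vdr-cKO was lost without MCAO Vdr-cKO replicate 1 (adjusted p = 0.0536) or 3 (0.0526), without sham Vdr-cKO replicate 1 (0.121) or 2 (0.114), and with MCAO Vdr-cKO replicates 3 and 4 only (0.07). All 5 choroid plexus markers also fell with MCAO in each genotype, with sums of 611 to 1510.4 CPM in MCAO Vdr-cKO and 7908 to 11239.9 in sham Vdr-cKO, and 436 to 1122 in MCAO control and 2673 to 9001 in sham control libraries. The 7 astrocyte markers, of another cell type that makes ceruloplasmin, summed to 39.9 to 56.0 CPM in MCAO Vdr-cKO and 151 to 158 CPM in sham Vdr-cKO, and 36.9 to 51.8 CPM in MCAO control and 62.4 to 182 CPM in sham control libraries. Of the 7 astrocyte markers 3 rose and 1 fell in Vdr-cKO, and 3 rose and 4 fell in control. The part of these cell types in the change of Cp was not tested.

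Among the import genes 2 of 3 rose. Tfrc, the transferrin receptor, which carries the 3′ UTR elements (ENSMUSG00000022797, chromosome 16, 32608920 to 32632794), had 33.7, 33.5, 35.7 and 34.8 CPM in MCAO Vdr-cKO libraries, against 20.6, 20.4 and 16.3 CPM in sham Vdr-cKO libraries. In controls it had 40.6, 43.9, 34.5 and 42.2 CPM after MCAO, against 17.9, 20.4, 23.4, 20.2 and 19.4 CPM after sham. Tfrc rose 1.80-fold in Vdr-cKO (log2 0.85, standard error 0.11, adjusted p = 8.69e-05) and 1.98-fold in control (log2 0.99, standard error 0.10, adjusted p = 3.17e-06). So the receptor and the ferritin chains rose together while the exporter fell.

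Slc11a1, the phagosomal metal transporter NRAMP1 (ENSMUSG00000026177, chromosome 1, 74375195 to 74386062), had 447 to 487 CPM in MCAO Vdr-cKO libraries, against 292 to 332 CPM in sham Vdr-cKO libraries. In controls the ranges were 409 to 507 CPM after MCAO and 291 to 349.6 CPM after sham. It rose by 0.59 on the log2 scale in Vdr-cKO (standard error 0.09, adjusted p = 0.000238) and by 0.50 in control (standard error 0.08, adjusted p = 0.000164).

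Slc11a2, the endosomal divalent metal transporter DMT1 (ENSMUSG00000023030, chromosome 15, 100387898 to 100425072), was the member with no call for surgery. It had 45.0 to 50.8 CPM in MCAO Vdr-cKO and 44.5 to 46.5 CPM in sham Vdr-cKO libraries, and 44.7 to 61.2 CPM in MCAO control and 47.5 to 53.4 CPM in sham control libraries. The log2 fold change was 0.10 in Vdr-cKO (95% interval -0.09 to 0.29, adjusted p = 0.334) and 0.04 in control (95% interval -0.16 to 0.23, adjusted p = 0.743). Its direction turned by library size alone, to -0.15 in Vdr-cKO (adjusted p = 0.157) and to -0.20 in control (adjusted p = 0.0499).

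**Figure D2:**
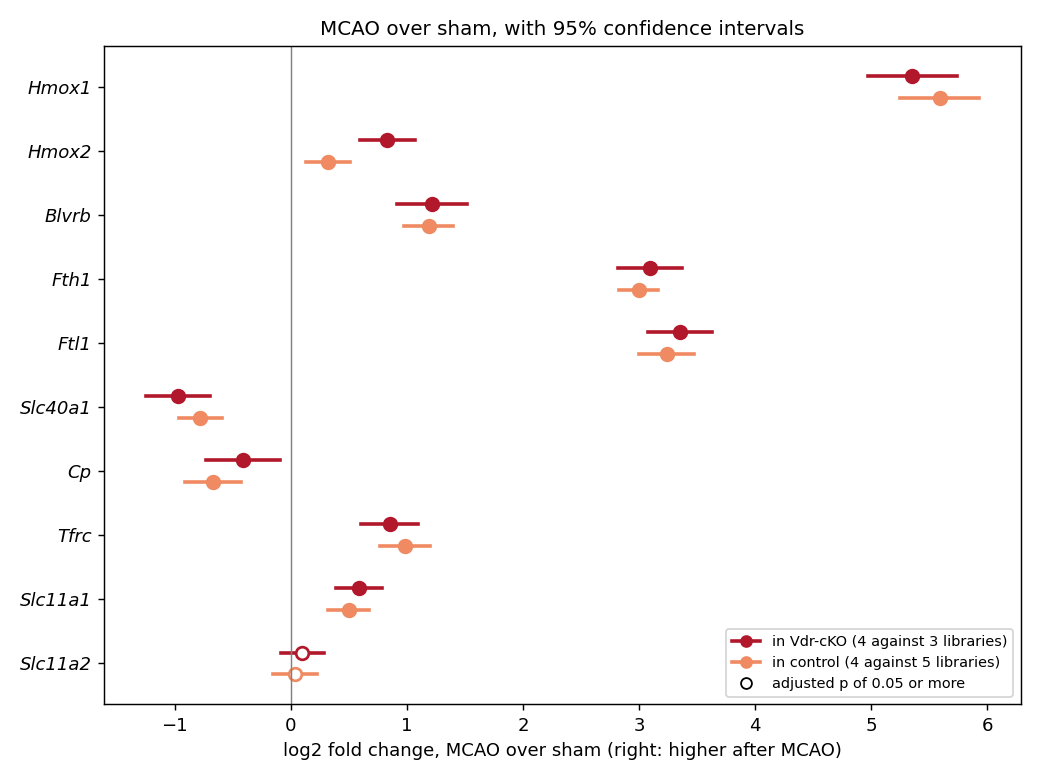
Log2 fold change of MCAO over sham (horizontal axis) for each gene, in Vdr-cKO and in control, with 95% confidence intervals as bars and open points for an adjusted p of 0.05 or more. Hmox1 lies at 5.36 and 5.59, the ferritin chains at 3.00 to 3.35, and Slc40a1 and Cp below 0.

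Levels per kilobase of exon (RPKM from the same scaled counts) give the order of the genes within a group. In both MCAO groups Ftl1 was first, at 2179 ± 229.6 RPKM (SD, n = 4) in Vdr-cKO and 2484 ± 338 RPKM (SD, n = 4) in control libraries, then Fth1 and Hmox1, with no overlap of libraries between these neighbours. Hmox1 averaged 834 ± 137 RPKM in MCAO Vdr-cKO and 996 ± 164 RPKM in MCAO control libraries (SD, n = 4 each), and Slc11a1, next in order, 127 ± 4.64 and 122 ± 12.2 RPKM. In sham libraries Ftl1 and Fth1 were again first, overlapping in Vdr-cKO (213 ± 9.13 and 201 ± 10.4 RPKM, SD, n = 3) and apart in control (263 ± 25.4 and 193 ± 13.2 RPKM, SD, n = 5). After sham Slc11a1 was the third gene, and Hmox1 stood at place 6, next to Hmox2 and Slc40a1. In sham control libraries Slc40a1, Hmox2 and Hmox1, at 27.3, 22.7 and 20.6 RPKM, did not differ beyond the overlap of neighbours. Tfrc and Cp closed the order in every group, with Cp below Tfrc after MCAO (2.46 and 5.57 RPKM in Vdr-cKO, 2.42 and 6.52 RPKM in control) and overlapping it after sham. The coefficient of variation within a group was 2.22% to 17.7% over the 10 genes, and it was 12.9% to 17.7% for Hmox1.

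Ratios within a library, per exon length, do not depend on the scaling. Hmox1 to Hmox2 was 17.8 to 21.2 in MCAO Vdr-cKO and 28.5 to 40.6 in MCAO control libraries, and 0.731 to 0.991 in sham Vdr-cKO and 0.706 to 1.19 in sham control libraries. So the inducible form was close to the constitutive form after sham and many times it after MCAO, with every MCAO Vdr-cKO library below every MCAO control library. Reads from the stretch that Hmox2 shares with Cdip1 cannot be assigned, which bears on this ratio and on the place of Hmox2 in the order above. Slc40a1 to Tfrc was 1.83 to 2.58 in MCAO Vdr-cKO and 2.23 to 2.85 in MCAO control libraries, with medians of 7.45 in sham Vdr-cKO and 8.11 in sham control libraries and no sham library below 6.75. Fth1 to Ftl1 was 0.752 to 0.823 in MCAO Vdr-cKO and 0.544 to 0.722 in MCAO control libraries, and 0.852 to 1.03 in sham Vdr-cKO and 0.703 to 0.815 in sham control libraries. This last ratio was higher in Vdr-cKO than in control libraries after both surgeries, with no overlap. The ratios are given without a test. Among single genes 13% were apart between genotypes after MCAO and 7.73% after sham. The share of gene pairs that lie apart was not counted, so the separations of these ratios cannot be judged against it.

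**Figure D3:**
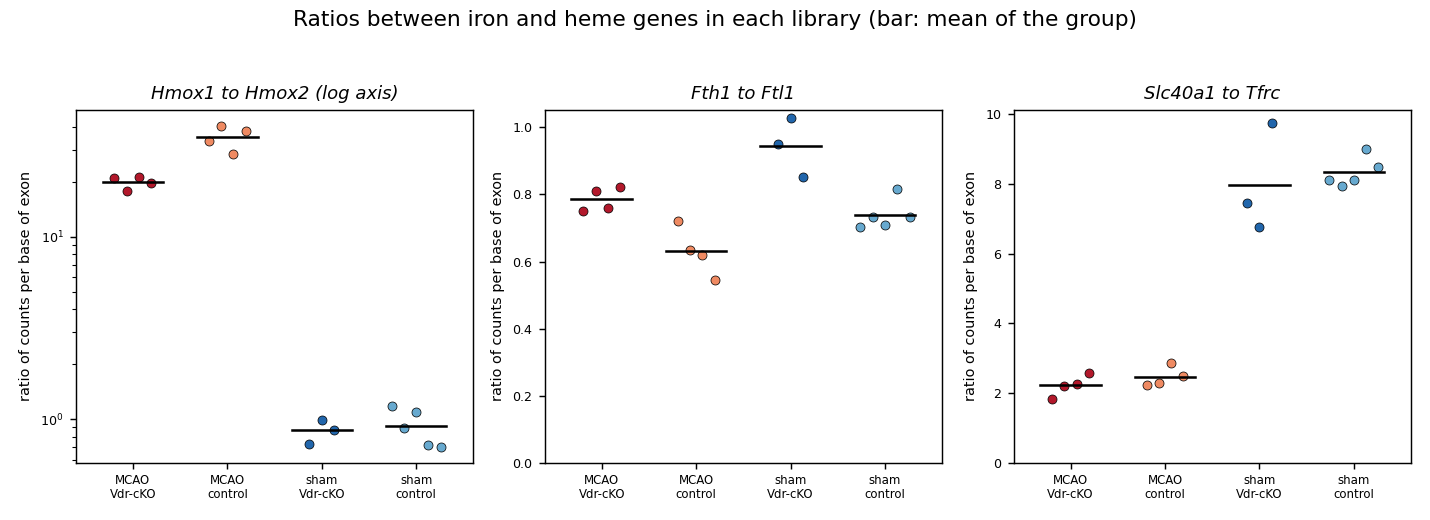
Ratio of 2 genes per exon base (vertical axis, logarithmic for Hmox1 to Hmox2) in each library, with points for libraries and bars for group means. Hmox1 to Hmox2 lies at 17.8 to 40.6 in MCAO libraries and at 0.706 to 1.19 in sham libraries.

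Between genotypes after MCAO, Hmox2 was the single gene of the 10 that was called. It was higher in Vdr-cKO libraries, where 3.24% of the 15286 genes tested were higher and 1.64% lower. The 4 Vdr-cKO libraries had 81.5 to 109.9 CPM and the 4 control libraries 55.4 to 66.5 CPM, means of 92.8 ± 12.3 and 63.0 ± 5.21 CPM (SD, n = 4 each), without overlap. The difference was 1.46-fold (log2 0.55, standard error 0.10, 95% interval 0.33 to 0.77, adjusted p = 0.00808). Replicate 1, the library with the highest monocyte sum, was the highest. With replicates 3 and 4 as the only Vdr-cKO libraries, the difference of Hmox2 was 0.42 on the log2 scale and was called. Their monocyte sums lay below those of all MCAO control libraries. The largest part of the sum, Fn1, averaged 1527 CPM in MCAO Vdr-cKO and 2473 CPM in MCAO control libraries. Ly6c2, Plac8 and Ms4a4c ran the other way, at 145.7, 104.9 and 99.4 CPM or more in every MCAO Vdr-cKO library. In MCAO control libraries these markers reached at most 35.1, 43.7 and 41.0 CPM. Over all other settings of the same call rule the adjusted p of Hmox2 was 9.56e-05 to 0.0343. With all 8 libraries 3 of 9 monocyte markers were higher in Vdr-cKO, and the part of the cell types in the level of Hmox2 was not tested. The antisense neighbour Cdip1 did not pass the test (log2 0.02, adjusted p = 0.949).

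Slc40a1 was the other gene with no overlap between genotypes after MCAO, so 2 of the 10 were apart, where 13% of genes were. Its levels, 89.7 to 131 CPM in Vdr-cKO and 132 to 153 CPM in control libraries, differed by -0.37 on the log2 scale (standard error 0.11, 95% interval -0.62 to -0.13, adjusted p = 0.0852). This did not pass edgeR's test, and it passed with DESeq2 (adjusted p = 0.03), with the replicate block (0.0405) and without MCAO Vdr-cKO replicate 4 (0.0345). Over all genes edgeR called 495 higher and 250 lower, DESeq2 724 and 512, and the replicate block 491 and 211. Without MCAO Vdr-cKO replicate 4 edgeR called 488 and 198. The sum of the border macrophage markers was lower in Vdr-cKO at the same time, at 838 to 1023 CPM in Vdr-cKO and 1293 to 1575 CPM in control libraries. Mrc1 and F13a1 were the 2 of 6 that fell. Cd163 (means of 44.7 and 38.5 CPM) and Lyve1 (19.6 and 16.5 CPM) averaged higher in Vdr-cKO than in control, without a call. The part of these markers' cells in the level of Slc40a1 was not tested.

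The other 8 genes overlapped between genotypes after MCAO. Hmox1 had a log2 difference of -0.26 (95% interval -0.57 to 0.04, adjusted p = 0.332), Ftl1 one of -0.20 (95% interval -0.46 to 0.06, adjusted p = 0.405) and Fth1 one of 0.14 (95% interval -0.08 to 0.35, adjusted p = 0.487). Tfrc was at -0.23 (95% interval -0.43 to -0.04, adjusted p = 0.173), where a single control library, at 34.5 CPM, reached into the Vdr-cKO range of 33.5 to 35.7 CPM. The log2 differences of Blvrb, Slc11a1, Slc11a2 and Cp ran from -0.12 to 0.05, with adjusted p of 0.568 to 0.959. At an unadjusted p under 0.05 there were 3 genes, Hmox2, Slc40a1 and Tfrc. The share of all genes under that threshold is not given here, so this number cannot be judged against it.

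After sham surgery 0 of the 10 genes were called between genotypes by edgeR, where 0.444% of 16425 genes were higher and 0.0244% lower in Vdr-cKO. DESeq2 called 1, Ftl1, and limma-voom called 0. Over all genes DESeq2 called 178 higher and 70 lower, limma-voom 71 and 3, and edgeR 73 and 4. At an unadjusted p under 0.05 there were 2, Ftl1 and Slc11a2, again without the share of all genes. The same 2 genes had no overlap between the groups, where 7.73% of genes were apart. Ftl1 was lower in each of the 3 Vdr-cKO libraries (274 to 298 CPM) than in the 5 control libraries (314 to 400.3 CPM), with a log2 difference of -0.33 (standard error 0.09, 95% interval -0.52 to -0.14, adjusted p = 0.18, and 0.0318 by DESeq2). Slc11a2 was at 44.5 to 46.5 CPM in Vdr-cKO and 47.5 to 53.4 CPM in control libraries (log2 -0.20, standard error 0.08, adjusted p = 0.385). Hmox1 and Hmox2, which had 31.1 to 40.3 and 51.2 to 53.9 CPM in Vdr-cKO libraries, differed from control by -0.05 (95% interval -0.35 to 0.25) and 0.02 (95% interval -0.18 to 0.21).

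**Figure D4:**
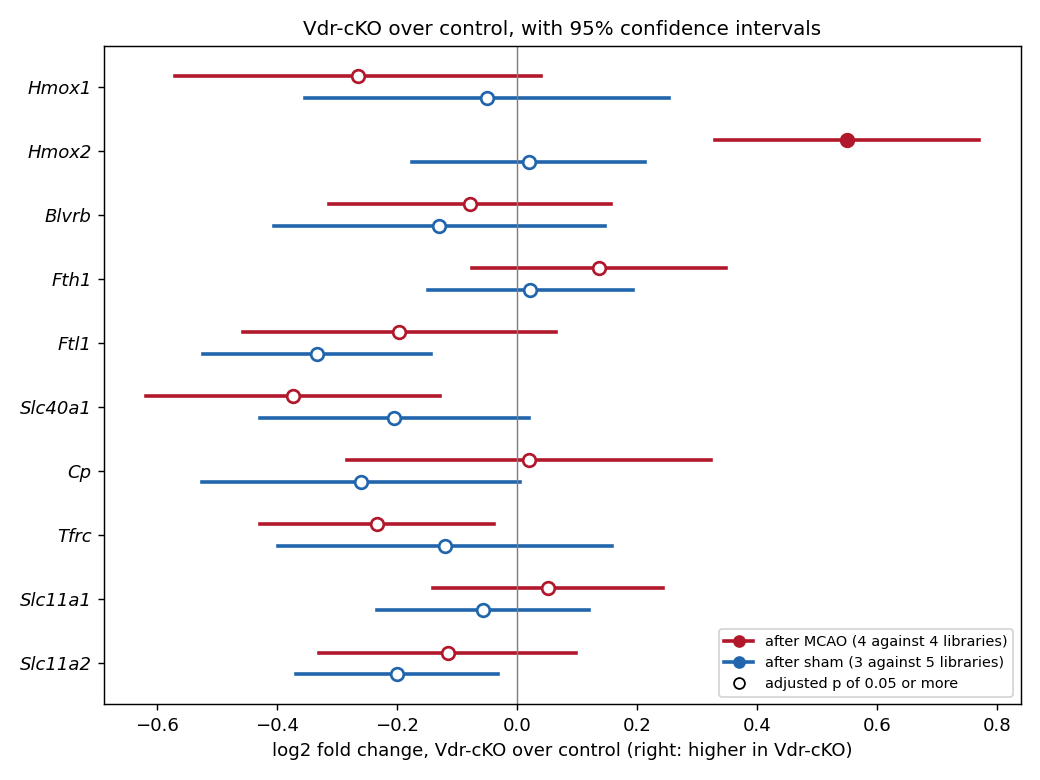
Log2 fold change of Vdr-cKO over control (horizontal axis) for each gene after MCAO and after sham, with 95% confidence intervals as bars and open points for an adjusted p of 0.05 or more. Hmox2 after MCAO, at 0.55, is the single filled point.

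The genotype by surgery interaction asks whether the genotypes differ more after MCAO than after sham, in 1 fit of all 16 libraries. By edgeR 0 of the 10 genes passed, where 1.4% of 17335 genes had a positive and 1.15% a negative interaction. Hmox2 came nearest, at 0.51 in log2 units (standard error 0.14, 95% interval 0.21 to 0.80, adjusted p = 0.0673). Of the 10 it was the 1 gene with an unadjusted p under 0.05, again without the share of all genes. DESeq2 called it (adjusted p = 0.0218), and edgeR did so with at least 10 counts in every library (0.0383) or when either MCAO Vdr-cKO replicate 3 (0.0419) or sham control replicate 3 (0.0206) was left out. Over all genes DESeq2 called 398 positive and 350 negative interactions, against 243 and 199 in the first fit. The other settings just named called 291 and 185, 259 and 161, and 368 and 358, in that order. limma-voom called 0 of the 10, and over all settings the interaction of Hmox2 was 0.37 to 0.56 with adjusted p up to 0.468. For the other 9 genes the interaction lay between -0.24 (Hmox1) and 0.25 (Cp), with adjusted p of 0.576 to 0.964.

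Wider lists of the pathway were read against the same shares of all genes, 29.3% rising and 28.8% falling with MCAO in Vdr-cKO and 31.2% and 32.3% in control. Genes were named by the smallest adjusted p in each comparison. A change given for 1 genotype therefore does not mean that the other genotype did not change. Of 10 other targets of NRF2, the transcription factor that also drives Hmox1 and the ferritin genes, 8 rose and 1, Nqo1, fell with MCAO in each genotype, and the median log2 fold change was 1.80 in Vdr-cKO and 2.21 in control. Prdx1, a peroxidase, rose by 2.50 on the log2 scale in Vdr-cKO (adjusted p = 3.47e-07) and by 3.06 in control (adjusted p = 6.08e-10). Gclm, a subunit of the first enzyme of glutathione synthesis, rose by 1.84 in Vdr-cKO (adjusted p = 6.69e-07) and by 2.23 in control (adjusted p = 1.22e-08). Srxn1, sulfiredoxin, rose by 3.22 in Vdr-cKO, and in control it averaged 66.5 CPM after MCAO and 7.71 CPM after sham. Txnrd1, thioredoxin reductase, rose by 2.18 in control, and in Vdr-cKO it averaged 173 CPM after MCAO and 50.9 CPM after sham. Between genotypes 0 of the 10 were called after MCAO or after sham.

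Genes that bring heme to the oxygenase were split. Of 10 genes of heme uptake and transport tested, 5 rose and 5 fell with MCAO in each genotype. Slc48a1, which moves heme out of the phagolysosome, rose by 1.58 on the log2 scale in Vdr-cKO (154.9 CPM after MCAO, 51.8 CPM after sham, adjusted p = 6.81e-07) and by 2.15 in control (202 CPM after MCAO, 45.2 CPM after sham, adjusted p = 1.31e-08). Hebp1, a heme-binding protein, averaged 50.7 CPM in MCAO control and 14.5 CPM in sham control libraries (log2 1.80, adjusted p = 9.89e-08). In Vdr-cKO libraries Hebp1 averaged 40.0 CPM after MCAO and 15.4 CPM after sham. Cd163, the receptor for hemoglobin bound to haptoglobin, fell by 1.66 in control (38.5 CPM after MCAO, 121 CPM after sham, adjusted p = 7.61e-06). Its means in Vdr-cKO were 44.7 CPM after MCAO and 92.4 CPM after sham. In Vdr-cKO the heme-binding membrane protein Pgrmc1 fell by 0.98 (adjusted p = 6.16e-06) and Flvcr2 fell by 2.58 (0.753 CPM after MCAO, 4.55 CPM after sham, adjusted p = 1.61e-05). In control Pgrmc1 averaged 50.8 CPM after MCAO and 84.2 CPM after sham, and Flvcr2 0.719 and 3.09 CPM. Cd163 is itself one of the border macrophage markers.

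Of 12 genes of heme synthesis 2 rose and 3 fell in Vdr-cKO, and 3 rose and 3 fell in control, in each direction a smaller share than over all genes. Ppox, which forms protoporphyrin, fell by 0.53 in Vdr-cKO (adjusted p = 0.00336) and fell by 0.66 in control (adjusted p = 4.44e-05). Alas1, the rate-limiting first enzyme, had a log2 fold change of 0.29 in Vdr-cKO (adjusted p = 0.0145), lost by library size alone (adjusted p = 0.706), and Cpox fell by 0.73 in control (adjusted p = 0.00013). With sham control replicates 1 and 3 only, 3 of the 12 were called in control, and with MCAO Vdr-cKO replicates 3 and 4 only, 3 of the 12 in Vdr-cKO. Alternatives for these lists and their genes were applied after the data were seen. In mitochondrial iron and iron-sulfur genes, 1 of 8 rose and 2 fell in Vdr-cKO and 2 rose and 2 fell in control (2 called with sham control replicates 1 and 3 only), again smaller shares than over all genes, with Slc25a37, mitoferrin 1, lower in both (log2 -0.57, adjusted p = 0.000181 in Vdr-cKO, and -0.64, adjusted p = 3.38e-06 in control). Glrx5, an iron-sulfur glutaredoxin, rose by 0.76 in Vdr-cKO (adjusted p = 0.00642) and by 0.71 in control (adjusted p = 0.00616, and 0.0536 with sham control replicates 1 and 3 only). Cisd1 fell by 0.31 in Vdr-cKO (adjusted p = 0.0421, lost under 12 of 16 alternatives, leaving out any one library of the comparison among them).

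Among iron sensors and chaperones, 5 of 9 rose and 1 fell with MCAO in Vdr-cKO, and 5 rose and 0 fell in control. The share called in either direction, 66.7% in Vdr-cKO and 55.6% in control, was near that over all genes. Fbxl5, which marks the iron regulatory protein IRP2 for breakdown when iron is ample, rose by 0.92 in Vdr-cKO (198 CPM after MCAO, 104 CPM after sham, adjusted p = 0.000709) and by 1.22 in control (226.5 CPM after MCAO, 96.8 CPM after sham, adjusted p = 2.3e-06). Pcbp2, an iron chaperone, rose by 0.58 in Vdr-cKO (adjusted p = 0.000801), and in control it averaged 181 CPM after MCAO and 137 CPM after sham. Aco1 rose by 0.49 in control (adjusted p = 0.000223), and in Vdr-cKO it averaged 49.4 CPM after MCAO and 47.1 CPM after sham. The gene that fell in Vdr-cKO was Ncoa4 (log2 -0.36, adjusted p = 0.0039). Spic, the heme-induced factor of red pulp macrophages, averaged 3.09 CPM in MCAO control and 0.774 CPM in sham control libraries (log2 1.98, adjusted p = 5.61e-05). In Vdr-cKO libraries Spic averaged 2.25 CPM after MCAO and 0.802 CPM after sham.

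Of 18 genes of iron uptake, reduction and release (biliverdin reductase A included), 13 were tested in Vdr-cKO and 14 in control, and 5 rose and 7 fell in Vdr-cKO, while 5 rose and 6 fell in control. Steap3, the ferrireductase of the transferrin endosome, rose by 2.22 in Vdr-cKO (19.7 CPM after MCAO, 4.22 CPM after sham, adjusted p = 1.16e-06) and by 2.32 in control (22.4 CPM after MCAO, 4.46 CPM after sham, adjusted p = 1.37e-08). Slc39a14, an importer of free iron, rose by 1.85 in control (adjusted p = 1.75e-07), and Blvra, the other biliverdin reductase, by 1.12 (adjusted p = 2.45e-07). In Vdr-cKO Slc39a14 averaged 98.8 CPM after MCAO and 35.6 CPM after sham, and Blvra 43.5 and 18.9 CPM. Slc22a17, a lipocalin 2 receptor, and Steap1 fell by 2.27 and fell by 3.08 in Vdr-cKO (adjusted p = 7.42e-07 and 7.62e-06). In control Slc22a17 averaged 69.9 CPM after MCAO and 301 CPM after sham, and Steap1 1.54 and 9.89 CPM. The choroid plexus sums above fell with the same surgery, and their part in these values was not tested.

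After MCAO, 5 genes of these lists were called between genotypes and all 5 were lower in Vdr-cKO, 2 of the 9 sensors and chaperones and 3 of the 12 uptake genes tested, where 3.24% of all genes were higher and 1.64% lower. In the other 4 lists 0 of the genes tested were called. The sum of the border macrophage markers was lower in the same libraries, at 838 to 1023 CPM in Vdr-cKO and 1293 to 1575 CPM in control libraries. As given above, not all of these markers were lower, and their part in these values was not tested. With MCAO Vdr-cKO replicates 3 and 4 as the only Vdr-cKO libraries, 1 of the 9 and 2 of the 12 were called. Slc39a8, an importer of zinc, manganese and iron, had 28.5, 22.4, 22.1 and 23.6 CPM in Vdr-cKO libraries, against 44.4, 37.8, 44.2 and 38.6 CPM in control libraries (log2 -0.78, standard error 0.10, adjusted p = 0.000984). Hfe, the hemochromatosis protein, which binds the transferrin receptor, had 103, 104, 99.2 and 108 CPM in Vdr-cKO libraries, against 142, 153, 156 and 161 CPM in control libraries (log2 -0.57, standard error 0.07, adjusted p = 0.000676). Ncoa4, the receptor that delivers ferritin to the lysosome, had 72.0, 79.9, 80.9 and 83.2 CPM in Vdr-cKO libraries, against 105, 110.3, 107 and 115 CPM in control libraries (log2 -0.47, standard error 0.07, adjusted p = 0.00318). In these 3 genes the groups were clearly separate, and their calls held under 17 of 17 other settings of the same call rule, leaving out each library among them.

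Aco1, whose product without its iron-sulfur cluster is the iron regulatory protein IRP1, had 47.7 to 50.4 CPM in Vdr-cKO libraries, against 54.8 to 69.6 CPM in control libraries (log2 -0.41, standard error 0.09, adjusted p = 0.0206). Its call was lost under 5 settings, without MCAO Vdr-cKO replicate 2, without MCAO control replicate 2, 3 or 4, and with MCAO Vdr-cKO replicates 3 and 4 only, with adjusted p up to 0.0826. Trf, transferrin, had 764 to 1018 CPM in Vdr-cKO libraries, against 1021 to 1455 CPM in control libraries (log2 -0.53, standard error 0.14, adjusted p = 0.0491). The call of Trf was lost under 10 of 17 settings, among them leaving out any one MCAO Vdr-cKO library or MCAO control replicate 2, 3 or 4, with adjusted p up to 0.16. Oligodendrocytes and choroid plexus also make transferrin, and after MCAO the 6 oligodendrocyte markers summed to 86.3 to 100.3 CPM in Vdr-cKO and 87.5 to 100.3 CPM in control libraries. The 5 choroid plexus markers summed to 611 to 1510.4 CPM in Vdr-cKO and 436 to 1122 CPM in control libraries after MCAO. The part of these cells in the level of Trf was not tested.

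For 2 of the 5 genes the interaction passed too. Slc39a8 had an interaction of -0.79 (log2, standard error 0.13, adjusted p = 0.00154), with 28.4 to 31.3 CPM in sham Vdr-cKO and 28.5 to 30.2 CPM in sham control libraries. Hfe had an interaction of -0.44 (standard error 0.10, adjusted p = 0.0191), with 137 to 149 CPM in sham Vdr-cKO and 142 to 168 CPM in sham control libraries. The interaction of Hfe was lost under 5 of 25 settings, with no filter on low counts, without sham Vdr-cKO replicate 1 or 3, with MCAO Vdr-cKO replicates 3 and 4 only and with sham control replicates 1 and 3 only (adjusted p up to 0.0971). After sham 0 genes of these lists were called between genotypes by edgeR.

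**Figure D5:**
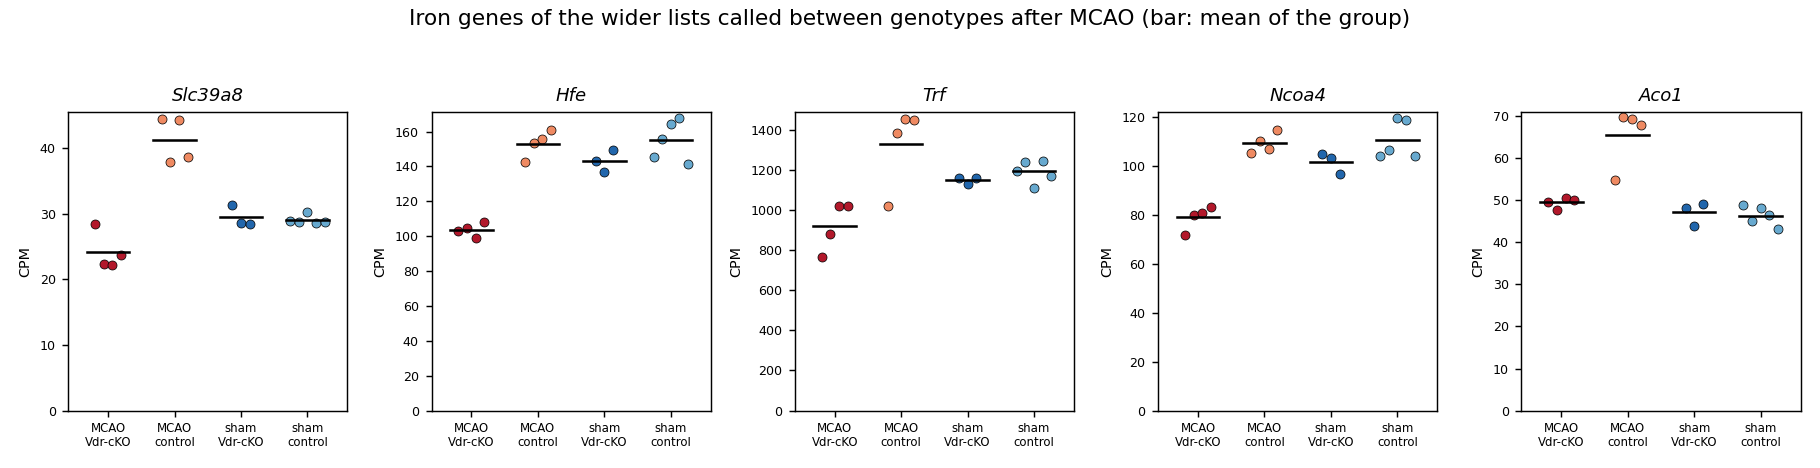
Level (CPM, vertical axis) of the 5 genes of the wider lists called between genotypes after MCAO, in each library, with points for libraries and bars for group means. For Slc39a8 the MCAO Vdr-cKO libraries lie at 22.1 to 28.5 CPM, below the MCAO control libraries at 37.8 to 44.4 CPM.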

How the data were processed

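The authors deposited raw counts per gene as whole numbers, 1 column a library. Per the methods, CD11b microbeads and poly-A mRNA were used, while the sample notes give sorted CD11b+ CD45int cells and rRNA depletion, and this was not reconciled. Tools in the submitters' processing notes are HISAT2 2.1.0, TopHat, bcl2fastq and limma, with the build GRCm38. The counting tool, annotation and strand setting are not given in the sources used here. Gene positions and exon lengths are from GENCODE M21, where 679 of the 31473 identifiers found had the same start and end as in the deposited table. The deposited positions thus differ from M21 for most genes, and the reason is not known. RPKM, ratios per exon length and exon overlaps, that of Hmox2 with Cdip1 included, rest on M21.

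Genes passing filterByExpr were scaled by TMM and tested with edgeR 4.0.16 (quasi-likelihood, R 4.3.3), each comparison on its own libraries and the interaction on all 16, with Benjamini-Hochberg adjustment over all genes tested. Intervals are 95% intervals of the fit. limma 3.58.1 (voom) and DESeq2 1.42.0 were alternatives, with other scalings, filters, a replicate block and left-out libraries. The tests were tried on simulated data. Between any 2 libraries at most 1.02% of genes with a mean count above 50 had the same count.

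The 10 genes, the lists and the libraries left out together were chosen with earlier results of these data known. All 10 genes are named, and of each list up to 3 genes with the smallest adjusted p among those called. Nqo1 was named after its values were seen. Some list genes that this rule picks are not reported here. Ftmt, of the mitochondrial list, was not analysed here.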

Additional observations from a re-analysis of the deposited data

Results flagged for a closer look

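Single libraries stood apart in 3 of 30 combinations of gene and group with 4 or 5 libraries, by a gap to the nearest library that is large for the range of the group. Chance gives about 1 in 20. Hmox1 was 1817 CPM in MCAO Vdr-cKO replicate 1, with the other 3 libraries of the group at 1308 to 1363 CPM. Cp was 18.3 CPM in the same library, with the others at 24.8 to 25.7 CPM. Of the 10 genes, 5 (Hmox1, Hmox2, Blvrb, Fth1 and Ftl1) were highest of the 4 libraries in this replicate and 2 (Slc40a1 and Cp) were lowest. This library also had the highest sum of monocyte markers of the group, 4508 CPM, and their part in these values was not tested. In MCAO control libraries the highest monocyte sum, in replicate 1, went with the highest Hmox2 and the lowest Blvrb and Ftl1. Blvrb was 19.2 CPM in sham control replicate 3, with the others at 23.0 to 24.4 CPM.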

How the results depend on the processing

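Alternatives were RLE or library-size scaling, no or a stricter filter on low counts, DESeq2, limma-voom, all libraries in 1 fit, a replicate block, a call rule that also asks for an absolute log2 fold change above 1, leaving out each library, and dropping MCAO Vdr-cKO replicates 1 and 2 or sham control replicates 2, 4 and 5 together. Of 980 values of the 10 genes under them, 930 kept direction and side of the threshold, 17 lost the call, 8 gained it and 25 turned direction, 0 of these among the 19 called values. Between genotypes after MCAO, 2 genes were called with DESeq2 and with the replicate block, 0 with the log2 fold change rule, and 1 to 2 with a library left out. After sham, 1 was called with DESeq2 and 0 with any library left out. With the log2 fold change rule 4 genes were called for surgery in each genotype. With a library left out, 9 were called in control and 8 to 9 in Vdr-cKO. For the interaction, 1 was called with at least 10 counts in every library and with DESeq2, and 0 to 1 with a library left out. Between genotypes and for the interaction DESeq2 also called more of all genes than edgeR, as given above.

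Direction turned for values near 0. For surgery by library size alone, Slc11a2 was -0.15 in Vdr-cKO and -0.20 in control, where edgeR called it lower (adjusted p = 0.0499). That value is counted among the 25 that turned and not among the 8 that gained a call. Hmox2 lost its call in control at the same setting, so 6 genes rose and 3 fell. Slc11a2 in control was also -0.0047 with at least 10 counts in every library and -0.036 to 0.13 with a library left out. With sham control replicates 1 and 3 only, Slc11a1 was 0.033 between genotypes after sham, and the interactions of Blvrb, Slc11a1 and Slc11a2 were -0.10, -0.00069 and -0.030. With a library left out, the genotype difference of Cp after MCAO was -0.067 to 0.13, and after sham those of Hmox1, Hmox2, Blvrb and Fth1 were -0.14 to 0.046, -0.028 to 0.047, -0.22 to 0.00074 and -0.0085 to 0.067. The interactions of Blvrb and Slc11a2 were then -0.11 to 0.12 and -0.0055 to 0.14. The cause was not tested.

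Samples that share a replicate number were checked for deviating together. The correlations of their deviations were -0.02 to 0.28 between genotypes after MCAO, -0.26 to 0.01 after sham, -0.09 to 0.10 for surgery in control and -0.08 to 0.09 in Vdr-cKO. The closest library of the other group had the same number in 2 of 4, 0 of 3, 1 of 4 and 1 of 3 pairs. The replicate block gave 2, 0, 9 and 9 called genes in these comparisons and 0 for the interaction, where that of Blvrb was -0.018. Replicate 1 was lowest for Slc40a1 and Cp in both MCAO groups. For Blvrb and Ftl1 it was highest in MCAO Vdr-cKO and lowest in MCAO control. The lowest count of the 10 genes was 262, so low counts were not the limit for them.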
